A study of Mus musculus with 12 samples.

Results

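The 10 genes described here, Pmaip1, Bbc3, Bax, Fas, Perp, Tnfrsf10b, Aen, Eda2r, Apaf1 and Pidd1, are targets of the transcription factor p53 whose products promote cell death. They were listed by name, and all 10 were found among the 20308 gene symbols of the deposited table, Pidd1 under its older symbol Lrdd. RNA was sequenced from urogenital sinus epithelium, the lining of the embryonic tube that forms the bladder neck, urethra and prostate, of mouse embryos of the C57BL/6J strain, taken on embryonic day 15.5. In the embryos behind the 8 Dnmt1cKO libraries, Cre under Shh control was used to delete Dnmt1 in this epithelium, and the 4 Control libraries are of wildtype embryos. Epithelium was freed from stroma with trypsin and several embryos were pooled in each lysate, so a library is a pool and not an animal. Neither the deleted exons nor the Cre status of Control embryos was given in the labels. The comparison asks which transcripts differ in the epithelium when Dnmt1 is targeted, the gene of DNA methyltransferase 1, which copies methylation marks to newly made DNA.

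p53 is a transcription factor that accumulates when DNA is damaged or replication is disturbed, and it can stop the cell cycle or start apoptosis. In the mitochondrial route, the BH3-only proteins Noxa (Pmaip1) and Puma (Bbc3) bind the protective members of the Bcl2 family, Bax opens the outer mitochondrial membrane, and released cytochrome c assembles with Apaf1 into the complex that activates caspase 9. Other targets act at the cell surface as death receptors, in the Pidd1 complex that activates caspase 2, or in the nucleus.

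The Dnmt1cKO libraries held 4007533 to 11970910 expected counts and the Control libraries 543591 to 7577706. Dnmt1 stood at 22.8 to 97.0 CPM (counts per 1000000 counts of the library, with totals adjusted by the TMM method of edgeR, which corrects for composition) in the 8 Dnmt1cKO libraries, against 164, 114 and 237 CPM in Controls 1 to 3. The library labelled Control 4 held 1 count of Dnmt1, or 2.84 CPM (95% counting interval 0.072 to 15.8), which is below every Dnmt1cKO library, unlike Controls 1 to 3. It also held only 1 count of Bax and 0 of Apaf1, so low counts there are not particular to Dnmt1. Pmaip1 had 0 counts there, against at least 89.9 CPM in each Dnmt1cKO library. Whether the label is right was not tested. The library labelled Control 4 and Control 3 were the shallowest and lay apart from the other 10 on the first principal component, with scores of 246 and 127 against -52.6 to -3.66. Fold changes of the tested genes among the 10 are given with and without these 2 libraries. Other comparisons that are given once include them and may depend on them. For Dnmt1 the log2 fold change was -1.29 ± 0.63 (SE) and was not called (edgeR adjusted p = 0.284). Without these 2 libraries it was -1.31 ± 0.42 (SE; edgeR adjusted p = 0.289). DESeq2 and limma-voom did not call it either (adjusted p = 0.139 and 0.489). The summed level of 12 epithelial markers, all found in the table and none called, was 4827 to 7898 CPM in Dnmt1cKO libraries and 3786 to 25592 CPM in Control libraries. That of 12 stromal markers was 349 to 6367 CPM in Dnmt1cKO and 1294 to 10641 CPM in Control, highest in Control 3, and none of them was called. Endothelial markers (8) summed to 9.90 to 105 CPM in Dnmt1cKO and 39.8 to 310 CPM in Control. Immune markers (10) summed to 17.6 to 63.9 CPM in Dnmt1cKO and 0 to 217 CPM in Control, with the T cell marker Cd3e at 0 counts in all libraries. Erythroid markers (7) summed to 10.5 to 1540 CPM in Dnmt1cKO and 429 to 5799 CPM in Control, and neural and glial markers (8) to 14.0 to 608 CPM in Dnmt1cKO and 28.4 to 592 CPM in Control. The part of these other cells in the results was not tested, and in bulk tissue fewer cells of a type cannot be told apart from less RNA per cell.

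Of the 10 genes, Pmaip1 alone rose in Dnmt1cKO epithelium, and none fell. In all, 9 of the 10 passed the filter on low counts, and Fas did not. An adjusted p under 0.05 (edgeR quasi-likelihood test, Benjamini-Hochberg adjustment over all 12761 genes tested) was reached by 1 of these 9 upward and 0 downward, where 1.03% of all tested genes were called higher and 1.55% lower. Before adjustment the counts at p under 0.05 were again 1 higher and 0 lower, beside 8.19% and 9.54% of all tested genes. DESeq2 also called 1 higher and 0 lower (4.01% and 8.47% of the genes it tested), and limma-voom with library quality weights called 0 in either direction (0.0627% of all tested genes higher). The fitted log2 fold changes of the 9 ran from -1.15 to 4.52 with a median of 0.31, beside a median of 0.22 over all genes tested, and 6 of the 9 were above 0, beside 57.3% of all tested genes. Without Control 3 and the library labelled Control 4, where Fas passed the filter as well, the median was 0.61, beside 0.16 over all genes tested. Separated groups, with each Dnmt1cKO value over each Control value, were found for 1 of the 10, Pmaip1, and in 2.59% of all tested genes; the opposite order was found for 0 of the 10 and in 0.486% of all tested genes. The Dnmt1cKO mean was above both Control 1 and Control 2 for 5 of the 10 (Pmaip1, Fas, Tnfrsf10b, Aen and Eda2r), and for 35.6% of all tested genes. Scaling bears on such counts. With RLE factors the median of all genes was 0.072, with 170 called higher and 726 lower, and with library totals alone it was 0.38, with 113 higher and 47 lower, beside 132 and 198 with TMM. Pmaip1 was called higher under all 3 scalings.

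**Figure D1:**
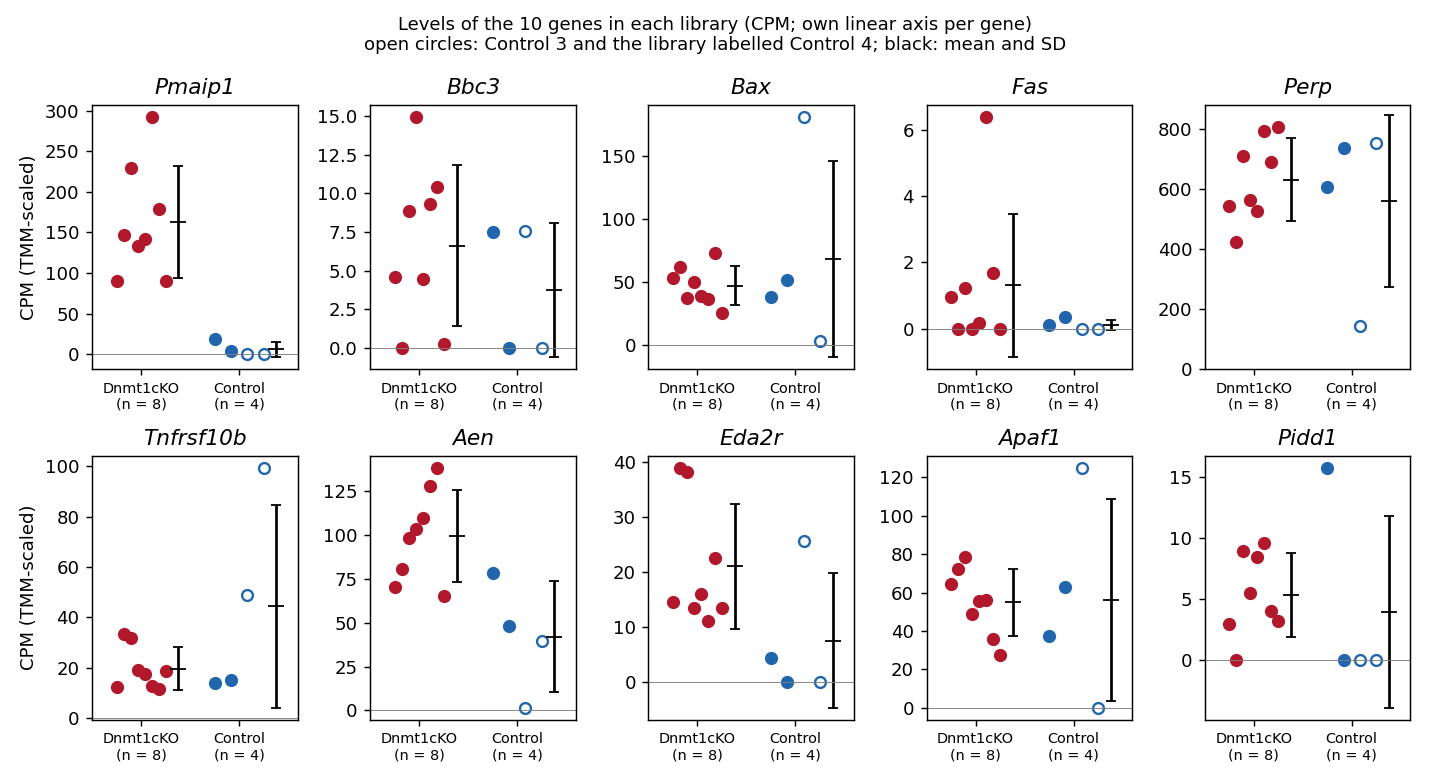
CPM of each of the 10 genes in every library, on a linear axis of its own for each gene, with Dnmt1cKO (n = 8, red) left of Control (n = 4, blue). Open circles are Control 3 and the library labelled Control 4, and black bars give the mean and SD. Pmaip1 is the gene whose groups do not overlap, at 89.9 to 292 CPM in Dnmt1cKO and 0 to 19.4 CPM in Control.

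Among the genes of the mitochondrial route, Pmaip1 encodes Noxa, a BH3-only protein that binds and neutralises the protective protein Mcl1. It lies on chromosome 18 from 66458533 to 66465565 on the plus strand (GENCODE M21, build GRCm38). Pmaip1 stood at 89.9 (lowest), 145 (median) and 292 CPM (highest) in the 8 Dnmt1cKO libraries, against 19.4, 3.71 and 0.75 CPM in Controls 1 to 3 and 0 counts in the library labelled Control 4. The lowest Dnmt1cKO library was thus above the highest Control library, Control 1. The Dnmt1cKO values rest on 316 to 2978 counts and the Control values on 158, 11, 1 and 0, and 0 counts in the library labelled Control 4 allow up to 8.53 CPM (3 counts, counting error only). Its average was 163 ± 69.3 CPM in the 8 Dnmt1cKO libraries, against 5.97 ± 9.11 CPM in the 4 Control libraries (± SD). The fold change was 22.9 (95% interval 7.54 to 69.6; log2 4.52 ± 0.79 SE, adjusted p = 0.00125, edgeR). Without Control 3 and the library labelled Control 4 it was 14.1-fold (log2 3.82 ± 0.64 SE, adjusted p = 0.00937), and the log2 fold change was 6.29 without Control 1, the source of 158 of the 170 Control counts. Mean Pmaip1 in Dnmt1cKO was 8.38 times the level in Control 1 alone, the deepest Control library.

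A ratio of 2 genes within a library does not depend on how libraries are scaled. The expected counts of Pmaip1 were 1.71 to 8.02 times those of Bax in the 8 Dnmt1cKO libraries, against 0.515, 0.0719 and 0.00417 times in Controls 1 to 3. Its value was 0, from 0 counts over 1, in the library labelled Control 4. Pmaip1 thus had more counts than Bax in each Dnmt1cKO library and fewer in Controls 1 to 3, and the library labelled Control 4 had too few counts of both to show an order.

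Bbc3, which encodes Puma (chromosome 7, 16308393 to 16318205, plus strand), was low and scattered in both groups. It stood at 0 (lowest), 6.73 (median) and 14.96 CPM (highest) in Dnmt1cKO libraries, against 7.50, 0 and 7.54 CPM in Controls 1 to 3 and no count in the library labelled Control 4. The groups overlapped: Dnmt1cKO 2 had 0 counts and Dnmt1cKO 8 had 1, and 4 of the 8 Dnmt1cKO libraries lay above Control 1. On average (± SD) it stood at 6.61 ± 5.19 CPM over 8 Dnmt1cKO libraries, against 3.76 ± 4.34 CPM over 4 Control libraries. The log2 fold change, 0.73 ± 1.40 (SE), was not called (edgeR adjusted p = 0.832). Its 95% interval, from -2.10 to 3.57, covers both a fall and a rise as large as 11.9-fold. Without Control 3 and the library labelled Control 4 the log2 fold change was 0.85 ± 1.77 (SE; edgeR adjusted p = 0.901).

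Bax, the pore-forming protein of the outer mitochondrial membrane (chromosome 7, 45461697 to 45466898, minus strand), was detected in all 12 libraries. It stood at 25.1 (lowest), 44.0 (median) and 73.1 CPM (highest) in Dnmt1cKO libraries, against 37.7, 51.6 and 181 CPM in Controls 1 to 3 and 2.84 CPM, a single count, in the library labelled Control 4. All Dnmt1cKO values lay between the 2 extreme Control values. Averaged over 8 Dnmt1cKO libraries it reached 46.8 ± 15.6 CPM (± SD), against 68.3 ± 77.9 CPM over the 4 Control libraries. The log2 fold change was -0.56 ± 0.70 (SE; edgeR adjusted p = 0.730). It was 0.13 ± 0.44 (SE) without Control 3 and the library labelled Control 4 (adjusted p = 0.944), so its sign turned, and the interval then ran from -0.79 to 1.06. Exon bases of Bax are shared with 1 other gene annotated in GENCODE M21, Gm45808, so reads of these genes may have been divided between them. The expected counts of Bax were fractional in 3 of the 12 libraries, and the annotation that the authors used was not given.

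The stretch upstream of Bax holds a single copy of the unit of which the p53 response element has a pair. It was read from the RefSeq promoter table (GRCm38.p6), in which each gene's window covers 250 bases before and 50 after its start. It spans chr7:45466899-45467148 on the minus strand, the unit begins 201 bases before the start, and capitals mark the unit.
Bax: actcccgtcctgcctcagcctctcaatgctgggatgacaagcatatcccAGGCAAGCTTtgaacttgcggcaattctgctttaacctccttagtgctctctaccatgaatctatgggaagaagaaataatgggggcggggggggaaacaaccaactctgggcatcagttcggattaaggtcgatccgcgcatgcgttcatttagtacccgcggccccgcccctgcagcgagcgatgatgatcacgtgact

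Windows were found for 7 of the 10 genes, namely Bax, Aen, Bbc3, Pidd1, Apaf1, Fas and Eda2r. The p53 consensus unit, whose pattern reads the same on both strands, was found in the windows of 2 of these 7 genes, Bax and Aen. Among all 27025 genes with windows, 9.55% held it. A match describes letters only, and nothing follows from its absence in a window of this length.

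Apaf1, the scaffold that activates caspase 9 once cytochrome c is released (chromosome 10, 90989311 to 91082770, minus strand), stood at 27.7 (lowest), 56.0 (median) and 78.4 CPM (highest) in Dnmt1cKO libraries. It stood at 37.5, 62.7 and 125 CPM in Controls 1 to 3, and at 0 counts in the library labelled Control 4, where 0 allows up to 8.53 CPM. Its average was 55.0 ± 17.3 CPM in the 8 Dnmt1cKO libraries, against 56.3 ± 52.6 CPM in the 4 Control libraries (± SD), and the groups overlapped. The log2 fold change was -0.054 ± 0.72 (SE; edgeR adjusted p = 0.982), and 0.21 ± 0.43 (SE) without Control 3 and the library labelled Control 4 (adjusted p = 0.901), with the sign turned. Both Apaf1 and Bax had their highest level of all libraries in Control 3.

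Neither the tested death receptors nor Pidd1 was called. Fas, the receptor of the Fas ligand (chromosome 19, 34290666 to 34327772, plus strand), was close to absent: 111 counts were found over the 8 Dnmt1cKO libraries, 64 of them in Dnmt1cKO 6, and 2 counts over the 4 Control libraries. Its levels were 0 (lowest), 0.56 (median) and 6.39 CPM (highest) in Dnmt1cKO libraries, against 0.12 and 0.34 CPM in Controls 1 and 2 and 0 in the others. The ratio of pooled count rates was 9.41 (95% counting interval 2.55 to 78.7), which covers counting error and not the spread between libraries. With no filter on low counts the log2 fold change was 3.05 ± 2.38 (SE; edgeR adjusted p = 0.497). Fasl, which encodes its ligand, had 0 counts in all 12 libraries.

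Tnfrsf10b encodes the mouse death receptor of the ligand Trail (chromosome 14, 69767472 to 69784411, plus strand). It stood at 11.5 (lowest), 18.0 (median) and 33.2 CPM (highest) in Dnmt1cKO libraries, against 13.8, 14.8 and 49.0 CPM in Controls 1 to 3, with 99.5 CPM for the library labelled Control 4. The 2 highest values of the gene were thus those of the 2 shallowest libraries. On average (± SD) it stood at 19.5 ± 8.48 CPM over 8 Dnmt1cKO libraries, against 44.3 ± 40.3 CPM over 4 Control libraries. The log2 fold change of -1.15 ± 0.78 (SE; edgeR adjusted p = 0.479) became 0.51 ± 0.74 without those 2 libraries (adjusted p = 0.857). DESeq2 gave -1.93 with an adjusted p of 0.0507. Its expected counts were fractional in all 12 libraries, which marks reads that the authors' software did not assign wholly to this gene. Tnfsf10, which encodes the ligand Trail, stood at 31.5 ± 15.3 CPM over 8 Dnmt1cKO libraries and 10.1 ± 12.2 CPM over 4 Control libraries (± SD) and was not called (edgeR adjusted p = 0.442). In Controls 1 and 2 alone the mean of Tnfsf10 was 20.2 CPM.

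Eda2r, the receptor of the A2 form of ectodysplasin (X chromosome, 97333840 to 97377216, minus strand), had a fold change that turned on Control 3. It stood at 11.1 (lowest), 15.3 (median) and 39.1 CPM (highest) in Dnmt1cKO libraries, against 4.30, 0 and 25.6 CPM in Controls 1 to 3 and no count in the library labelled Control 4. All 8 Dnmt1cKO libraries lay above Control 1, Control 2 and the library labelled Control 4, and 2 of them, Dnmt1cKO 2 and 3 at 39.1 and 38.3 CPM, lay above Control 3 as well. Averaged over 8 Dnmt1cKO libraries it reached 21.0 ± 11.4 CPM (± SD), against 7.48 ± 12.3 CPM over the 4 Control libraries. With all libraries the log2 fold change was 1.45 ± 1.11 (SE; edgeR adjusted p = 0.536), and without Control 3 it was 3.47. Without Control 3 and the library labelled Control 4 it was 3.25 ± 1.19 (SE), or 9.48-fold, with an unadjusted p of 0.0145 that did not hold after adjustment (adjusted p = 0.375), where 6.96% of all genes tested were higher at an unadjusted p under 0.05. Eda, which encodes its ligand, stood at 4.14 ± 2.69 CPM over 8 Dnmt1cKO libraries and 3.52 ± 4.64 CPM over 4 Control libraries (± SD) (edgeR adjusted p = 0.976).

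The region upstream of Eda2r is shown because Dnmt1 acts on CpG dinucleotides and this window holds few of them. Its 300-base RefSeq window has 5 CpG, beside a median of 20 over the windows of 9628 tested genes, and 12.3% of those windows had 5 or fewer. The windows of the other 6 matched genes had 14 (Fas) to 46 (Apaf1) CpG. The part before the annotated transcripts, chrX:97377217-97377459 on the minus strand, is given with its 4 CpG in capitals. No methylation was measured in these libraries.
Eda2r: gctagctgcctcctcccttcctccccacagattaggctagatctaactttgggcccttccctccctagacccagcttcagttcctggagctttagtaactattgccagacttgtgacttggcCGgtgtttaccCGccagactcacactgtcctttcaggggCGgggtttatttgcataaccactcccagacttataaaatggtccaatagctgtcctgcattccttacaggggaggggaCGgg

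Pidd1, the scaffold of the complex that activates caspase 2 (chromosome 7, 141438113 to 141444025, minus strand), stood at 0 (lowest), 4.71 (median) and 9.59 CPM (highest) in Dnmt1cKO libraries. It stood at 15.7 CPM in Control 1 and at 0 counts in Controls 2 and 3 and the library labelled Control 4, where 0 allows up to 1.01, 2.26 and 8.53 CPM. Control 1 was above every Dnmt1cKO library, and 7 of the 8 Dnmt1cKO libraries had counts. Its average was 5.30 ± 3.42 CPM in the 8 Dnmt1cKO libraries, against 3.93 ± 7.87 CPM in the 4 Control libraries (± SD). The log2 fold change of 0.31 ± 1.41 (SE; edgeR adjusted p = 0.939) rests on 1 Control library, and without Control 3 and the library labelled Control 4 it was -0.52 ± 1.56 (SE; adjusted p = 0.938), with the sign turned. A level like the Dnmt1cKO median lies below the 8.53 CPM that 0 counts allow in the library labelled Control 4, so it could have been missed there.

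Of the remaining genes, Aen encodes a nuclease of the nucleolus and nucleus that promotes apoptosis (chromosome 7, 78895854 to 78911209, plus strand). It stood at 65.3 (lowest), 101 (median) and 138 CPM (highest) in Dnmt1cKO libraries, against 78.2, 48.2 and 1.51 CPM in Controls 1 to 3, with 39.8 CPM for the library labelled Control 4. All 8 Dnmt1cKO libraries were above Control 2, Control 3 and the library labelled Control 4, and 6 of the 8 were above Control 1. On average (± SD) it stood at 99.3 ± 26.2 CPM over 8 Dnmt1cKO libraries, against 41.9 ± 31.6 CPM over 4 Control libraries. The fold change of 2.35 (95% interval 0.914 to 6.03; log2 1.23 ± 0.67 SE) was not called (edgeR unadjusted p = 0.0747, adjusted p = 0.347). Without Control 3 and the library labelled Control 4 it was 1.63-fold (log2 0.71 ± 0.36 SE, adjusted p = 0.569). The p53 consensus unit in its promoter window lies in the first exon, inside chr7:78895927-78895956 on the plus strand (RefSeq table, GRCm38.p6), and is in capitals here.
Aen: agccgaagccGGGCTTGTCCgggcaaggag

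Perp, a tetraspan membrane protein of desmosomes in stratified epithelia and also a target of the related factor p63, had the highest level of the 10 (chromosome 10, 18845020 to 18857073, plus strand). It stood at 424 (lowest), 625 (median) and 807 CPM (highest) in Dnmt1cKO libraries, against 606, 736 and 142 CPM in Controls 1 to 3, with 754 CPM for the library labelled Control 4. Apart from Control 3 the Control values lay within the Dnmt1cKO range, and Control 3 also had the lowest summed epithelial markers (3786 CPM) and the highest stromal ones (10641 CPM), whose part was not tested. Averaged over 8 Dnmt1cKO libraries it reached 631 ± 138 CPM (± SD), against 559 ± 286 CPM over the 4 Control libraries. The log2 fold change of 0.18 ± 0.38 (SE; edgeR adjusted p = 0.855) had the narrowest interval of the 9, from -0.60 to 0.95. Without Control 3 and the library labelled Control 4 it was -0.020 ± 0.27 (SE; adjusted p = 0.989). With RLE factors, the scaling used by DESeq2, the log2 fold change was -0.39.

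**Figure D2:**
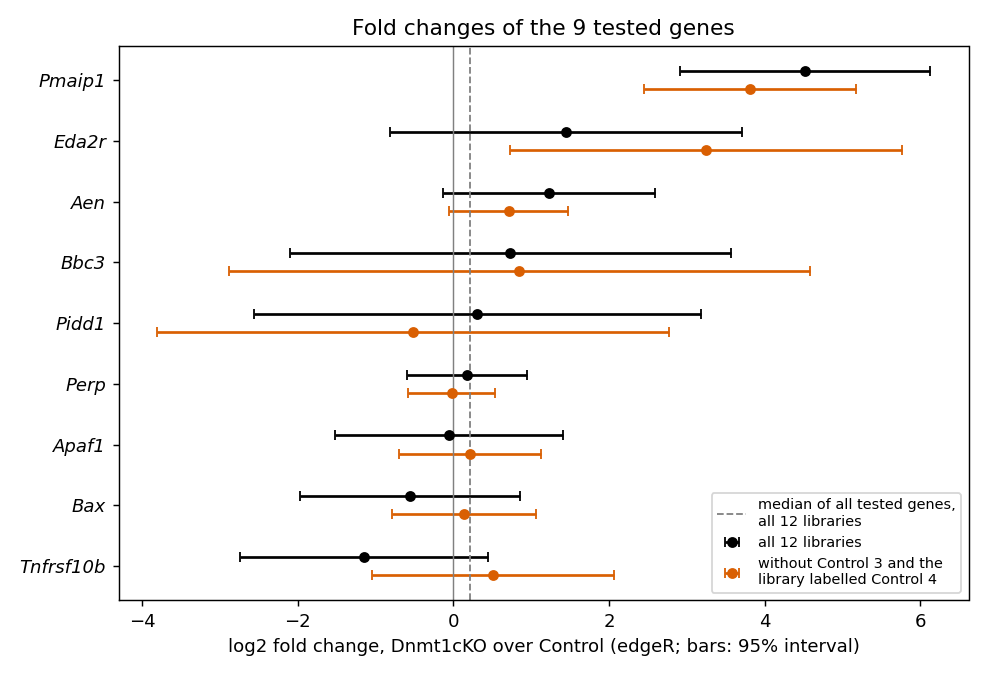
Log2 fold change of the 9 tested genes, Dnmt1cKO over Control, with 95% intervals from edgeR, for all 12 libraries (black) and without Control 3 and the library labelled Control 4 (orange). The dashed line is the median of all tested genes, 0.22. The interval of Pmaip1, 2.91 to 6.12, lies above 0 in both fits, and that of Eda2r lies above 0 in the smaller one, where its adjusted p was 0.375.

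Levels of different genes were compared as CPM per kilobase of merged exons in GENCODE M21. The effective lengths that RSEM used were not used here. In Dnmt1cKO epithelium Pmaip1 ranked 2 of the 10, at 59.6 ± 25.4 CPM per kilobase (SD, n = 8), below Perp at 323 ± 70.5. Bax followed at 29.7 ± 9.91, Aen at 17.1 ± 4.52 and Apaf1 at 6.09 ± 1.92 CPM per kilobase. Tnfrsf10b (3.58 ± 1.56), Eda2r (3.57 ± 1.93) and Bbc3 (3.11 ± 2.45) lay within 1 SD of each other, and Pidd1 (1.17 ± 0.75) and Fas (0.63 ± 1.05) were lowest. In Control epithelium Pmaip1 ranked 6 of the 10, at 2.19 ± 3.33 CPM per kilobase (SD, n = 4), below Perp (287 ± 147), Bax (43.3 ± 49.4), Tnfrsf10b (8.12 ± 7.39), Aen (7.23 ± 5.44) and Apaf1 (6.24 ± 5.83). Below Perp, neighbours in the Control order overlap within their SD. In Control 1 alone Pmaip1 ranked 4 of the 10, at 7.11 CPM per kilobase, after Perp, Bax and Aen.

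The spread within Dnmt1cKO libraries differed between the genes. The coefficient of variation was 21.8% for Perp, 26.4% for Aen, 31.5% for Apaf1, 33.4% for Bax, 42.6% for Pmaip1 and 43.4% for Tnfrsf10b, and 54.1% to 166% for Eda2r, Pidd1, Bbc3 and Fas. In Control libraries it was at least 51.1% for each of the 10. Within the Dnmt1cKO group Pmaip1 was highest in Dnmt1cKO 6, 3 and 7 (292, 230 and 178 CPM) and lowest in Dnmt1cKO 1 and 8 (89.9 and 90.1 CPM). Over the 8 Dnmt1cKO libraries its log2(CPM + 2) was related to that of Aen with Pearson r = 0.77 (exact two-sided permutation p = 0.0254) and Spearman rho = 0.67 (exact p = 0.0831). Adjusted by Benjamini-Hochberg over 10 relations, to the other 9 genes and Dnmt1, these p-values were 0.150 and 0.240 by the exact permutation test. Without the 2 libraries farthest from the median of Pmaip1, r was 0.63. For Dnmt1 itself r was -0.56 (exact permutation p = 0.147, adjusted 0.422), rho was -0.69 (exact permutation p = 0.0694, adjusted 0.240) and r without the same 2 libraries was -0.28. For Fas r was 0.73 (exact permutation p = 0.0299, adjusted 0.150) and rho was 0.66 (exact permutation p = 0.0923, adjusted 0.240), and r without the same 2 libraries was 0.76. None of the 10 relations passed the adjustment. These relations were chosen after the values were seen, and all points share the scaling of their library.

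The sample descriptions carry a code whose meaning is not stated, and both groups have libraries with the codes 4, 5, 6 and 7. Pmaip1 was higher in Dnmt1cKO by 3.43, 4.57, 5.71 and 6.41 on the log2(CPM + 2) scale within these codes, and Aen by 0.32, 1.07, 4.99 and 1.36. These were the 2 of the 9 tested genes that were higher within all 4 codes, as were 18.2% of all genes tested. Within the single codes 7, 6, 4 and 8 of the 9 were higher, beside 48.5%, 56.0%, 64.7% and 78.4% of all tested genes. In code 6, whose Control is Control 3, the median difference of the 9 genes was -0.56 beside 1.01 for all tested genes, and in code 7, whose Control is the library labelled Control 4, it was 1.82 beside 1.83.

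**Figure D3:**
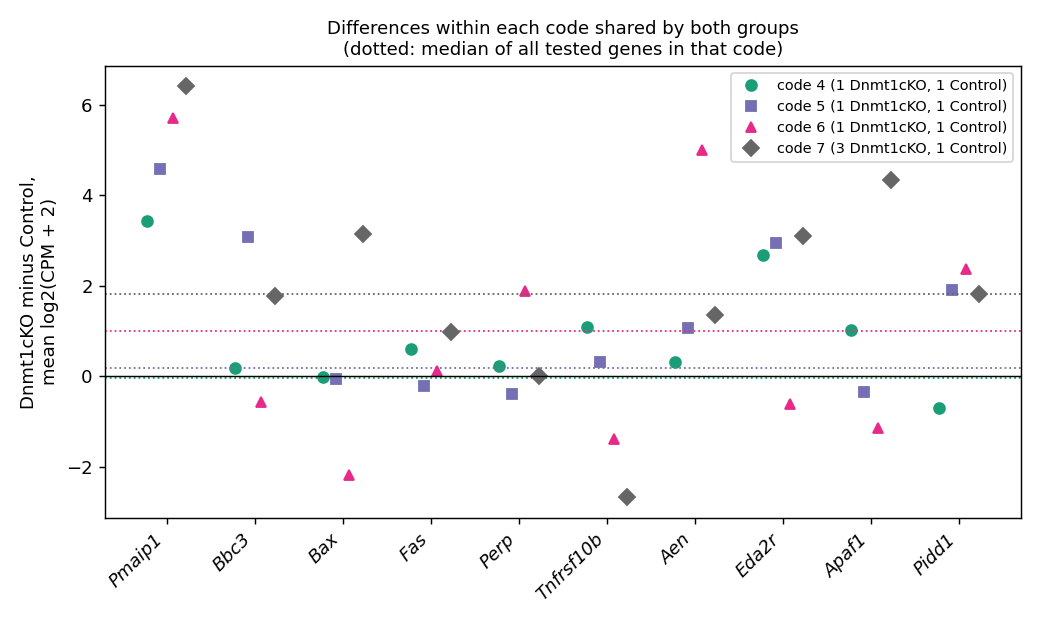
Difference of Dnmt1cKO minus Control in mean log2(CPM + 2) for each of the 10 genes within the codes 4 to 7, each with 1 Control library and 1 or 3 Dnmt1cKO libraries. Dotted lines give the median of all tested genes in that code. Pmaip1 lies 3.43 to 6.41 above 0, Aen lies 0.32 to 4.99 above 0, and each of the other genes is below 0 in at least 1 code.

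Beyond the 10 genes, none of 29 tested genes out of 31 partners of the death pathway (p53 and its regulators, Bcl2 family members, caspases, adaptors and ligands) was called in edgeR over all genes. Of all tested genes 1.03% were called higher and 1.55% lower. Without adjustment 2 of the partners had a p under 0.05, both higher, beside 8.19% of all tested genes. By DESeq2 2 partners were called, both higher, beside 4.01% of the genes it tested, and by limma-voom 0. Trp53, which encodes p53, stood at 77.2 ± 19.8 CPM in Dnmt1cKO and 59.4 ± 22.4 CPM in Control (SD, n = 8 and 4; edgeR adjusted p = 0.797), and its inhibitor Mdm2 at 114.8 ± 31.9 CPM in Dnmt1cKO and 39.3 ± 45.6 CPM in Control (edgeR adjusted p = 0.304). In Controls 1 and 2 alone the mean of Mdm2 was 78.2 CPM. Its fold change was 2.82 with all libraries and 1.53 without Control 3 and the library labelled Control 4 (edgeR adjusted p = 0.580).

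Of 27 p53 targets of cell cycle arrest, feedback and metabolism 26 were tested, 3 rose and 0 fell in edgeR, beside 1.03% and 1.55% of all tested genes. Without adjustment, a p under 0.05 was reached by 4 upward and 2 downward, beside 8.19% and 9.54% of all tested genes. By DESeq2 3 were higher and 1 was lower, beside 4.01% and 8.47%, and limma-voom called 0 of the 26. The lower one was Gadd45a, whose log2 fold change of -1.68 in edgeR became 1.27 without Control 3 and the library labelled Control 4. The 3 that rose were Cdkn1a, which encodes the cell cycle inhibitor p21, the cyclin gene Ccng1, and Trp53inp1, a p53-induced nuclear protein. Ccng1 stood at 219 to 455 CPM in Dnmt1cKO and 2.84 to 89.9 CPM in Control, Trp53inp1 at 142 to 257 CPM in Dnmt1cKO and 2.84 to 71.3 CPM in Control, and Cdkn1a at 12.3 to 122 CPM in Dnmt1cKO and 0 to 8.61 CPM in Control. Their fold changes were 7.47 for Ccng1 (edgeR adjusted p = 0.00747), 5.12 for Trp53inp1 (adjusted p = 0.0205) and 14.8 for Cdkn1a (adjusted p = 0.0232), and the groups of none of the 3 overlapped (2.59% of all tested genes had each Dnmt1cKO value over each Control value). In limma-voom their adjusted p-values were 0.134 for Ccng1, 0.135 for Trp53inp1 and 0.202 for Cdkn1a. The median log2 fold change of the 26 was 0.85, and that of the 29 death pathway partners was 0.59, beside 0.22 for all tested genes. These medians were taken over all 12 libraries only, so how far they rest on Control 3 and the library labelled Control 4 is not shown. Ccng1 and Trp53inp1 remained called without Control 3 and the library labelled Control 4, with smaller fold changes of 4.29 and 4.12. In that fit 0.322% of all tested genes were called higher, and Cdkn1a had a fold change of 14.7 with an edgeR adjusted p of 0.170. Cdkn1a was also not called when only the library labelled Control 4 was left out (edgeR adjusted p = 0.0506).

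The genes whose pattern over the 12 libraries was closest to that of Pmaip1 were Skint4, Krt6a, Grk4, Hspa1b and Slc25a31. Their root mean square difference from Pmaip1 in centred log2(CPM + 2) was 0.62, 0.63, 0.68, 0.73 and 0.79, beside a median of 2.31 over all other tested genes. None of them is among the other 9 genes or the lists of p53 targets and death pathway partners. Each was among the genes called higher (1.03% of all tested genes). That follows largely from their choice by closeness to Pmaip1, itself called higher in the same libraries, and is no separate result.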

How the data were processed

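The authors deposited a table of RSEM expected counts, which are estimated counts of reads per gene, for 20308 gene symbols in 12 libraries. RSEM 1.2.3, Bowtie 0.12.9 and bcl2fastq 2.17.1.14 are named with build mm10, per the submitters' processing notes. For the annotation, trimming and strand setting the entry is: not given in the sources used here. Polyadenylated RNA was fragmented and primed with random hexamers per the labels' protocols, with no molecular identifiers mentioned, so intervals and floors cover counting error only.

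Expected counts were rounded to whole numbers and tested with the quasi-likelihood test of edgeR 4.0.16 in R 4.3.3 (genotype as the only term, TMM, robust dispersion, filterByExpr with a minimum count of 10 and a total of 15). SE is the absolute log2 fold change divided by the square root of F, and 95% intervals use the t distribution with the moderated degrees of freedom. Alternatives used DESeq2 1.42.0, limma 3.58.1, other scalings and filters, blocks and omitted libraries. Scripts were tested on simulated data. Groups and replicate numbers came from the sample titles. Whether all libraries came from separate pools is not stated, so p-values reflect spread among these libraries, which may be technical. The 10 genes, the other lists and the alternatives were chosen with earlier results of these data known. Named genes were the 10 genes, Dnmt1, Trp53, Mdm2, up to 4 called genes of each list and the 5 nearest in pattern to Pmaip1, and others are marked where named. Values of some genes of the lists are not reported here.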

Additional observations from a re-analysis of the deposited data

Results flagged for a closer look

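In 3 of 20 groups of values (10 genes in each genotype), 1 library lay far from the others by Dixon's criterion. Chance alone meets it in about 1 of 20 groups of normally distributed values. CPM values with zeros from libraries of unlike depth are not of that kind, so the 3 groups are a description only. Fas stood at 6.39 CPM in Dnmt1cKO 6, where the next Dnmt1cKO library stood at 1.67 CPM. Eda2r stood at 25.6 CPM in Control 3, where the next Control stood at 4.30 CPM. Pidd1 stood at 15.7 CPM in Control 1 and at 0 counts in the other Control libraries, where any value in 1 library alone meets the criterion.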

How the results depend on the processing

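Pmaip1 was called higher under 21 of 22 alternatives, with log2 fold changes of 3.82 to 6.29, and was not called by limma-voom with quality weights (4.18, adjusted p = 0.222). No other of the 10 genes was called under any of the 22, and leaving out each library in turn kept 1 gene called higher (1 to 1) and 0 lower. Over all tested genes, 657 of 13161 were called higher and 494 lower without Control 1. Without the library labelled Control 4 these were 60 of 13352 higher and 36 lower. The median of the tested genes was 0.93 with limma-voom (0.23 for all tested genes), 1.78 with the code as replicate block (1.09 for all tested genes) and 0.94 with the title number as block (0.91 for all), and 0.14 to 1.27 with 1 library left out, where it was highest without Control 1 (0.49 for all). Groups did not overlap for 2 genes, Pmaip1 and Eda2r, without Control 3 and the library labelled Control 4 (beside 4.77% of all tested genes), also when Dnmt1cKO 2 was left out as well (7.72%), and for 1 to 2 genes with 1 library left out (Eda2r without Control 3, beside 3.47%, and Aen without Control 1, beside 9.63%). Of the partners, 2 were called higher by DESeq2, beside 4.01% of the genes it tested. With the code block 1 was called higher, beside 135 of all 12761 tested genes. With 1 library left out 0 to 2 were called higher. The 2 were called without Control 1, where 657 of all 13161 tested genes were called higher. Of the other p53 targets, limma-voom called 0 higher (0.0627% of all tested genes). The title block called 1 higher (Ccng1), beside 34 of all 12761 tested genes, and DESeq2 called 1 lower (Gadd45a), beside 8.47%. The blocks changed no call of the 10 genes. The correlation of deviations from group means was -0.046 to 0.054 over the 6 same-code pairs of libraries. It was -0.055 to 0.061 over the 4 pairs with the same title number, and -0.094 to 0.073 over pairs that share neither. Neither number was taken to pair samples in the main fit. With 1 Control library per code these values cannot exclude a shared origin of same-code libraries. Signs turned, without a call, in 27 of 198 cases. Apaf1 was 0.19 with library totals alone, 0.010 with no filter, 0.42 with limma-voom, 0.73 and 0.94 with the code and title blocks, 0.21 without Control 3 and the library labelled Control 4 and 0.15 without Dnmt1cKO 2 in addition. In the last 2 settings Bax was 0.13 and 0.068, Tnfrsf10b 0.51 and 0.37, and Pidd1 -0.52 and -0.34. Bax was also 0.082, 0.15 and 0.40 with limma-voom and the code and title blocks, and Tnfrsf10b 0.049 with limma-voom. Perp was -0.39 with RLE factors, -0.38 with DESeq2 and -0.020 without Control 3 and the library labelled Control 4. With 1 library left out the ranges were -0.85 to 0.55 for Bax, -0.14 to 0.42 for Perp, -0.36 to 0.65 for Apaf1 and -0.11 to 8.28 for Pidd1. The value of 8.28 arises without Control 1, when every Control library is at 0 counts, and is no bound. The cause of the other shifts was not tested. Depth limits the library labelled Control 4 most, where 0 counts allow 8.53 CPM.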
